A study of Capra hircus with 3 samples.

Results

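The genes read across the cells of goat liver were STAB2 (ENSCHIG00000026881), LYVE1 (ENSCHIG00000025251), BMPER (ENSCHIG00000018366), CLEC9A (ENSCHIG00000013656) and KDR (ENSCHIG00000006477). They were chosen by symbol, each symbol had 1 row, and they are 5 of the 27271 genes in the count matrices. Liver cells came from 15 female goats aged 3 to 4 years, in 3 groups of 5. The NASH-T group were goats of the non-alcoholic steatohepatitis tolerance group fed the HRDS diet, the NASH group were goats with non-alcoholic steatohepatitis fed the HRDS diet, and the Con group were healthy goats fed the LRDS diet. Each group is 1 droplet-based single-cell RNA library made from its 5 livers mixed together, so group, pool and handling cannot be told apart and no difference here has a replicate check. All livers were digested with 0.25% trypsin at 37 °C for about 40 minutes and passed through a 40 µm strainer, so only cells that survived this were seen.

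The endothelium of the hepatic sinusoid is fenestrated and clears waste molecules from the blood. STAB2 (stabilin-2) is a scavenger receptor that takes up hyaluronan and other polyanions, and LYVE1 is a hyaluronan receptor known from lymphatic and sinusoidal endothelium. KDR is the main signalling receptor for VEGF-A on endothelial cells. BMPER is not a receptor: it is a secreted protein that binds bone morphogenetic proteins (BMPs) outside the cell and tunes their signal. CLEC9A is a C-type lectin known, in human and mouse, from dendritic cells that cross-present antigen, where it binds actin filaments exposed by dead cells and signals through SYK.

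After filtering, the NASH-T, NASH and Con libraries had 8914, 8389 and 7200 cells, and the median cell had 2127.5, 2472 and 2392.5 unique molecular identifiers (UMIs). Of all barcode sequences, 64 occurred in more than 1 library. The 5 genes were kept out of the clustering and of the cell type markers, so that no class rests on them. Sinusoidal endothelial-like cells formed 1 cluster of 892 NASH-T, 472 NASH and 277 Con cells, which is 10.0%, 5.63% and 3.85% of the cells. Its median depth was 1668, 1420 and 1737 UMIs. Its leading genes included PTPRB, ADGRL4 and TEK, and 17 endothelial or sinusoidal markers were at least 2-fold above the other cells. It carried OIT3 (692 CPM, a gene's UMIs scaled by the total of the class), CLEC4G (525 CPM) and F8 (1614 CPM), but CRHBP, a sinusoidal marker in human liver, had 0 UMIs in each class compared. Vascular endothelial-like cells, led by HMCN1, MECOM, VWF and FLT1, numbered 136, 80 and 99. All intervals below are exact 95% intervals that cover counting error only and say nothing of the spread between goats. Levels are 3′ UMI counts without length scaling, and whether intronic reads were counted is not given in the sources used here, so the order of levels between genes is that of UMIs.

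All 5 genes were highest in the sinusoidal endothelial-like cells among the named classes. STAB2 had 3432 CPM in the NASH-T library, 3910 CPM in NASH and 3438 CPM in Con. LYVE1, the hyaluronan receptor, had 472 CPM in NASH-T, 408 CPM in NASH and 300.4 CPM in Con. The libraries thus lay close together for STAB2, while for LYVE1 the Con library was the lowest and its interval (256 to 350 CPM) lay below those of NASH-T (440 to 506 CPM) and NASH (365 to 454 CPM).

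KDR had 1523 CPM in NASH-T, 1376 CPM in NASH and 1415 CPM in Con. BMPER, the secreted BMP-binding protein, had 6743 CPM in NASH-T, 7271 CPM in NASH and 6670 CPM in Con, the most UMIs of the 5 in every library. CLEC9A had 1676 CPM in NASH-T, 1568 CPM in NASH and 1355 CPM in Con. CLEC9A UMIs in these cells were therefore as frequent as those of KDR, at 1590 CPM against 1464 CPM with the libraries pooled. Together the 5 genes made up 1.38% of the UMIs of the class in NASH-T, 1.45% in NASH and 1.32% in Con, and BMPER alone gave 49.4% of the UMIs of the 5 with the libraries pooled.

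**Figure D1:**
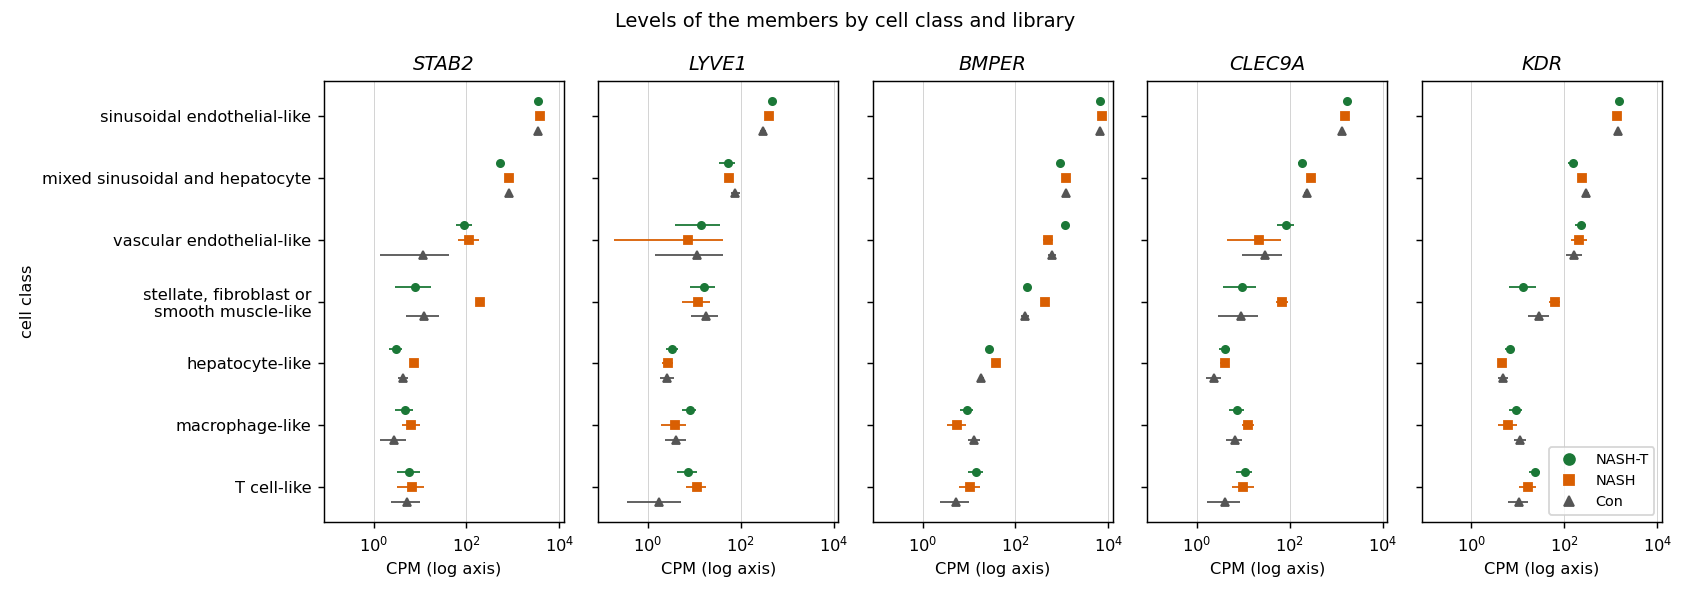
Level of each gene in CPM (log axis) by cell class, with NASH-T, NASH and Con as separate points and bars for the exact 95% Poisson interval of counting error. The highest points of each panel are those of sinusoidal endothelial-like cells, and the vascular endothelial-like class lies at 2.06% of them for STAB2 and 13.9% for KDR.

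Sinusoidal and vascular endothelium differed more in STAB2, LYVE1 and CLEC9A than in BMPER and KDR. With the libraries pooled, the vascular endothelial-like level was 2.06% of the sinusoidal level for STAB2, 2.75% for LYVE1 and 3.35% for CLEC9A, but 12.5% for BMPER and 13.9% for KDR. PTPRB, a phosphatase of all endothelium, had 2843 CPM in sinusoidal and 2881 CPM in vascular endothelial-like cells. FLT1, the other VEGF-A receptor, ran the opposite way from KDR, with 723 CPM in sinusoidal and 2128 CPM in vascular endothelial-like cells. FLT4, the receptor for VEGF-C, went with KDR at 243 CPM in sinusoidal and 36.7 CPM in vascular endothelial-like cells. NRP1, a VEGF co-receptor, had 2690 CPM in sinusoidal and 305 CPM in vascular endothelial-like cells.

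The ligands had other patterns. VEGFA, the ligand of KDR and FLT1, was highest, among the classes compared, in hepatocyte-like cells at 438 CPM and stood at 29.3 CPM in sinusoidal endothelial-like cells. VEGFC was highest in vascular endothelial-like cells (1355 CPM) and in stellate, fibroblast or smooth muscle-like cells (966 CPM). BMP6, the BMP that sinusoidal endothelium is known to supply to hepatocytes in mouse, had 320.4 CPM in sinusoidal endothelial-like cells, 322 CPM in stellate, fibroblast or smooth muscle-like cells and 0.471 CPM in hepatocyte-like cells. BMP2 had 69.9 CPM in sinusoidal endothelial-like cells, where the BMP receptor BMPR2 had 1510 CPM.

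With the libraries pooled, the 1641 cells of the sinusoidal class held most of the UMIs of each gene. The shares were 77.0% for STAB2, 71.7% for LYVE1, 75.7% for BMPER, 78.9% for CLEC9A and 74.2% for KDR. A further 11.4% to 18.3% lay in a cluster of 307 cells that carried sinusoidal and hepatocyte markers together, with a median of 7315 UMIs per cell. That mixed cluster had 39 NASH-T, 182 NASH and 86 Con cells, and was left out of every class. The split differed by library. For STAB2 the sinusoidal class held 93.2% of the UMIs in NASH-T, 62.8% in NASH and 67.0% in Con. The mixed cluster held 4.35%, 29.1% and 29.5%. For LYVE1 the sinusoidal class held 83.3%, 62.2% and 52.5% in the same order, and the mixed cluster 2.70%, 19.3% and 24.7%. In the mixed cluster the 5 genes stood at 14.5% to 21.6% of their sinusoidal levels, in the same order as in the sinusoidal class. There BMPER gave 46.8%, STAB2 30.7%, CLEC9A 10.2%, KDR 9.83% and LYVE1 2.46% of their UMIs. The sinusoidal class had 49.4%, 25.6%, 11.4%, 10.5% and 3.05%. The part of STAB2 was thus larger in the mixed cluster, and those of BMPER, CLEC9A and LYVE1 smaller, with intervals that did not overlap. Whether its cells are doublets or attached cells was not tested.

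Shares of cells gave the same contrast. After every cell was thinned to 1000 UMIs and shallower cells were left out, 722 NASH-T, 349 NASH and 239 Con sinusoidal endothelial-like cells remained. A STAB2 UMI was seen in 74.7% of these cells in NASH-T, 77.7% in NASH and 64.9% in Con (76.7%, 79.0% and 67.1% of all cells before thinning). For CLEC9A the shares were 76.6%, 75.1% and 68.2% (86.0%, 81.8% and 78.7% before thinning). Con was the lowest library for both genes.

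For BMPER the thinned shares were 86.1% in NASH-T, 85.7% in NASH and 84.9% in Con (90.0%, 89.2% and 85.9% before thinning). For KDR they were 67.9%, 67.3% and 66.9% (80.0%, 76.1% and 76.5%). For LYVE1 they were 29.6%, 27.2% and 22.6% (46.3%, 43.2% and 35.4%). T cell-like cells, which should lack these genes, had shares of 0.522% for STAB2, 0.410% for LYVE1, 0.895% for BMPER, 0.821% for CLEC9A and 1.16% for KDR at the same thinning. The median depth before thinning was 1117 UMIs in T cell-like and 1610 UMIs in sinusoidal endothelial-like cells. Hepatocyte-like shares of STAB2 (0.434%), LYVE1 (0.371%), CLEC9A (0.402%) and KDR (0.614%) were at or below those of T cells and are read as background, while that of BMPER was 2.74%.

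The same cells carried several of the genes at once. At least 3 of the 5 were detected in 78.8% of thinned sinusoidal endothelial-like cells in NASH-T, 77.7% in NASH and 69.0% in Con, against 1.23% of vascular endothelial-like cells and 32.5% of cells of the mixed cluster with the libraries pooled. All 5 were seen in 13.9% and none in 2.75% of sinusoidal cells. Among sinusoidal cells with a STAB2 UMI, 94.7% also had BMPER, 80.6% CLEC9A and 74.0% KDR, against 60.9%, 58.0% and 49.6% of those without. With the libraries pooled, LYVE1 followed STAB2 least, at 29.4% against 22.9%. In Con it was not clearly the least, with LYVE1 at 26.5% against 15.5% and CLEC9A at 72.9% against 59.5%. In the NASH library LYVE1 was no more frequent with a STAB2 UMI (26.9%) than without one (28.2%).

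**Figure D2:**
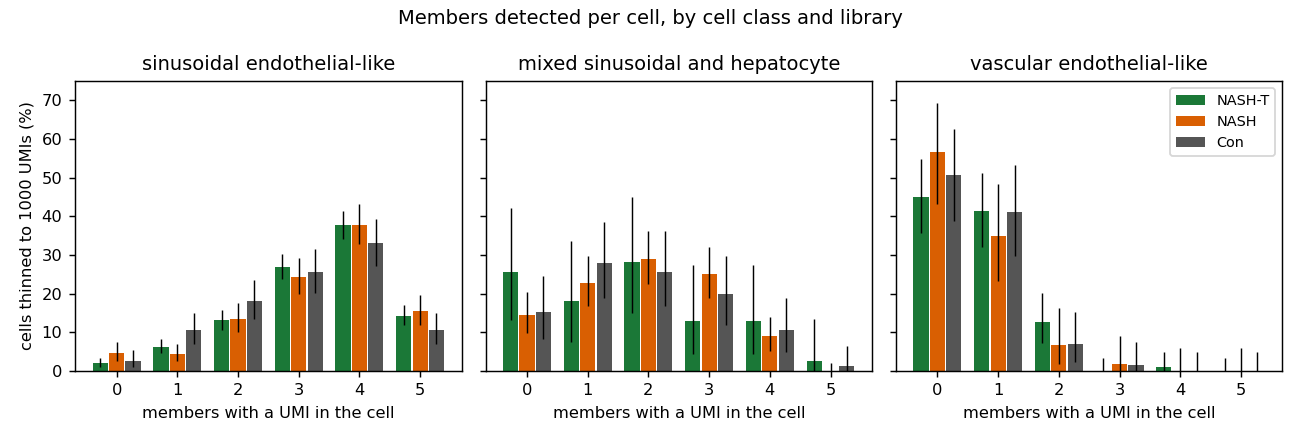
Number of the 5 genes detected per cell after thinning to 1000 UMIs, as percent of thinned cells, by cell class and library (NASH-T, NASH, Con), with exact 95% binomial intervals. Sinusoidal endothelial-like cells peak at 4 genes in every library, with 36.9% of cells pooled, while most vascular endothelial-like cells show 0 or 1.

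CLEC9A was next read against the genes of the dendritic cells it is known from. XCR1, the chemokine receptor of cross-presenting dendritic cells in human and mouse, also had 0 UMIs in each class compared. FLT3, a receptor that dendritic cells depend on, had 2 UMIs (0.651 CPM) in sinusoidal endothelial-like cells, where the dendritic factors BATF3 and IRF8 stood at 0.651 and 2.60 CPM. SYK, the kinase downstream of CLEC9A, had 6.18 CPM there and 631 CPM in macrophage-like cells. CLEC9A in sinusoidal endothelial-like cells was thus found with little FLT3, BATF3, IRF8 or SYK. CADM1, another gene of the dendritic list, went the other way. It was clearly present in these cells, at the NASH-T and Con levels given below with the lists.

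The only named dendritic class was small. Plasmacytoid dendritic-like cells (11 NASH-T, 21 NASH and 6 Con cells) had 438 CPM of FLT3 and 679 CPM of IRF8, and 2 CLEC9A UMIs in all, or 17.9 CPM (2.16 to 64.5 CPM). That is 1.12% of the CLEC9A level of sinusoidal endothelial-like cells.

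Sub-cluster M11, 57 cells of the macrophage-like class (9 NASH-T, 30 NASH and 18 Con) carried CLEC9A apart from the other 4 genes. It had 1 CLEC9A UMI in NASH-T (35.5 CPM), 17 in NASH (180 CPM) and 12 in Con (149 CPM), together 30 UMIs in 14 cells and 148 CPM (99.6 to 211 CPM). STAB2 had 2 UMIs there, and LYVE1, BMPER and KDR had 1 each. Its cells had 354 CPM of FLT3, 207 CPM of IRF8, 29.5 CPM of BATF3 and 1959 CPM of CADM1, with no XCR1. They also had hepatocyte transcripts among their leading genes (GHR and PIK3C2G), so M11 was left unnamed. FLT3 was not always seen with CLEC9A: sub-cluster M3 of 440 cells had 154 CPM of FLT3 and 7 CLEC9A UMIs (6.74 CPM), and M12, 44 cells that include most plasmacytoid dendritic-like cells, had 373 CPM of FLT3 and 6 CLEC9A UMIs (45.7 CPM).

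Cell by cell, 1194 thinned cells of any class had a CLEC9A UMI. Of these, 90.7% had UMIs of at least 2 endothelial markers, and 3 cells (0.251%) had a FLT3 UMI. Of the 96 cells with a FLT3 UMI and fewer than 2 endothelial markers, 2 had CLEC9A (2.08%, interval 0.253% to 7.32%), against 0.621% (0.510% to 0.748%) of the 17559 cells with neither. These intervals overlap, so a difference was not detectable at this depth.

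**Figure D3:**
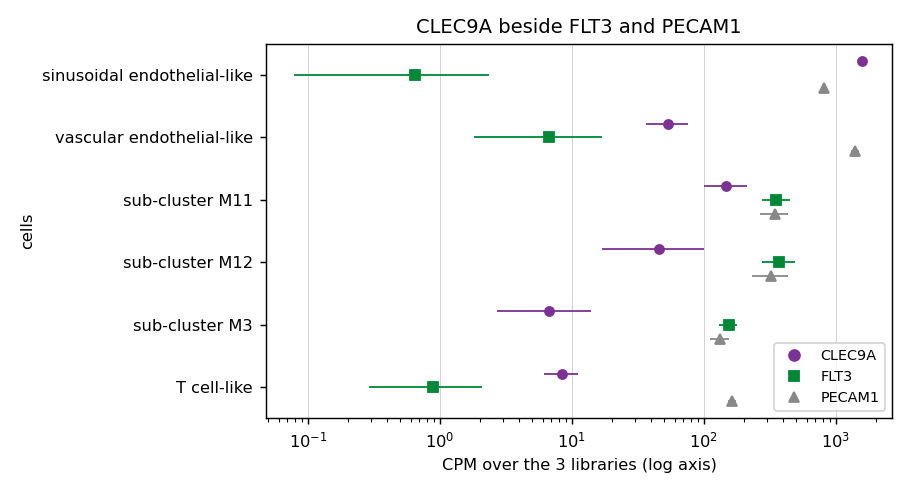
Levels of CLEC9A, FLT3 and the endothelial marker PECAM1 in CPM (log axis), pooled over the libraries, with exact 95% Poisson intervals, by class or sub-cluster. Sinusoidal endothelial-like cells have 1590 CPM of CLEC9A and 0.651 CPM of FLT3, sub-cluster M11 has 148 and 354 CPM, and M3 has 6.74 and 154 CPM.

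In the RefSeq annotation of goat assembly ARS1.2, used for names and neighbours only, CLEC9A lies between CLEC1A and CLEC1B, 2 other C-type lectin genes. CLEC1A had 412 CPM in sinusoidal, 339.9 CPM in vascular endothelial-like and 128 CPM in macrophage-like cells. CLEC1B, the podoplanin receptor of platelets and sinusoidal endothelium, had 101 CPM in sinusoidal and 3.33 CPM in vascular endothelial-like cells. The step from sinusoidal to vascular cells was thus large for CLEC9A and CLEC1B and small for CLEC1A. CLEC12A, a lectin of myeloid cells, had 0.325 CPM in sinusoidal endothelial-like cells and 155 CPM in macrophage-like cells.

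Over 66 sums of cells by cluster and library, the genes most like each of the 5 were sought among 9661 genes by Pearson correlation of log2(CPM + 20). These sums share libraries and cell classes, so the values describe likeness only. CLEC9A was most like KDR (0.925), then STAB2 (0.917), OIT3 (0.914), IL13RA2 (0.902) and WNT2 (0.901). STAB2 was most like CLEC9A, then KDR (0.914), OIT3 (0.894), BMPER (0.892) and PCDH17 (0.882). No dendritic gene of the fixed list was among the 5 closest to CLEC9A. However, no sum was of a dendritic class, because a sum needed at least 30 cells. Plasmacytoid dendritic-like cells numbered 11 in NASH-T, 21 in NASH and 6 in Con, and M11 lay within the macrophage-like sums. This ranking therefore cannot tell whether CLEC9A is like dendritic genes, and nothing is read from it.

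KDR was most like HECW2 (0.928), PCDH17 (0.926), CLEC9A, FLT4 (0.925) and OIT3 (0.924). BMPER was most like ARHGAP44 (0.931), ADGRL4 (0.930), KDR (0.919), OIT3 (0.918) and TEK (0.900). LYVE1 was most like IL13RA2 (0.909), CLEC1B (0.890), WNT2 (0.888), FLT4 (0.886) and SLC7A8 (0.855), with CLEC9A next in rank 6 (0.854), KDR in rank 11 (0.837), STAB2 in rank 20 (0.803) and BMPER in rank 21.

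The sinusoidal cells were not uniform. Clustered again with the 5 genes left out, the endothelial-like cells fell into 10 sub-clusters, of which E0, E1, E2, E3, E5 and E6 held nearly all sinusoidal cells and E4 most vascular cells. E6 was mixed: 44 of its 112 cells came from the vascular cluster, and its leading genes included the leukocyte genes SAMSN1, ITGA4, CD44 and TOX. The levels of the 5 genes in the sub-clusters are descriptions. STAB2 had 5612 CPM in E0, 4073 CPM in E2, 3695 CPM in E3, 2928 CPM in E1, 1424 CPM in E6 and 354 CPM in E5. BMPER had 10566 CPM in E0 and 1225 CPM in E5. Its level in E5 was below that of the vascular E4 in NASH-T (1083 against 1527 CPM) and above it in NASH (1155 against 600 CPM) and Con (1518 against 800 CPM). LYVE1 lay between 289 CPM in E5 and 490 CPM in E1. These levels pool libraries of unequal share, and E2 is mostly NASH-T (284 of 298 cells). Within Con, STAB2 had 3511 CPM in E1 and 3263 CPM in E3, with overlapping intervals, and LYVE1 ran between 161 CPM in E6 (7 UMIs) and 377 CPM in E0.

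E5 (194 cells) set the genes apart. It carried RSPO3 (380 CPM) and WNT2 (278 CPM), which in mouse mark endothelium near the central vein. RSPO3 was a leading gene of E5, but WNT2 was a leading gene of E3 and not of E5. VWF was higher in E5 (1786 CPM) than in E0 (193 CPM), E1 (550.0 CPM), E2 (158 CPM) and E3 (398 CPM). In thinned cells of the sinusoidal class, STAB2 was seen in 10.7% of E5 cells and 83.5% of the others, BMPER in 40.7% and 92.9%, and KDR in 41.2% and 71.7%. CLEC9A was seen in 57.6% of E5 cells and 77.3% of the others, and LYVE1 in 18.6% and 29.1%. With the libraries pooled, CLEC9A and LYVE1 therefore stayed closer to their level elsewhere in E5 than STAB2 did. CLEC9A had 999 CPM in E5 against 73.8 CPM in E4. In Con alone LYVE1 was seen in 9.26% of E5 cells (5 of 54) and 26.5% of the others, a larger fall than pooled.

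**Figure D4:**
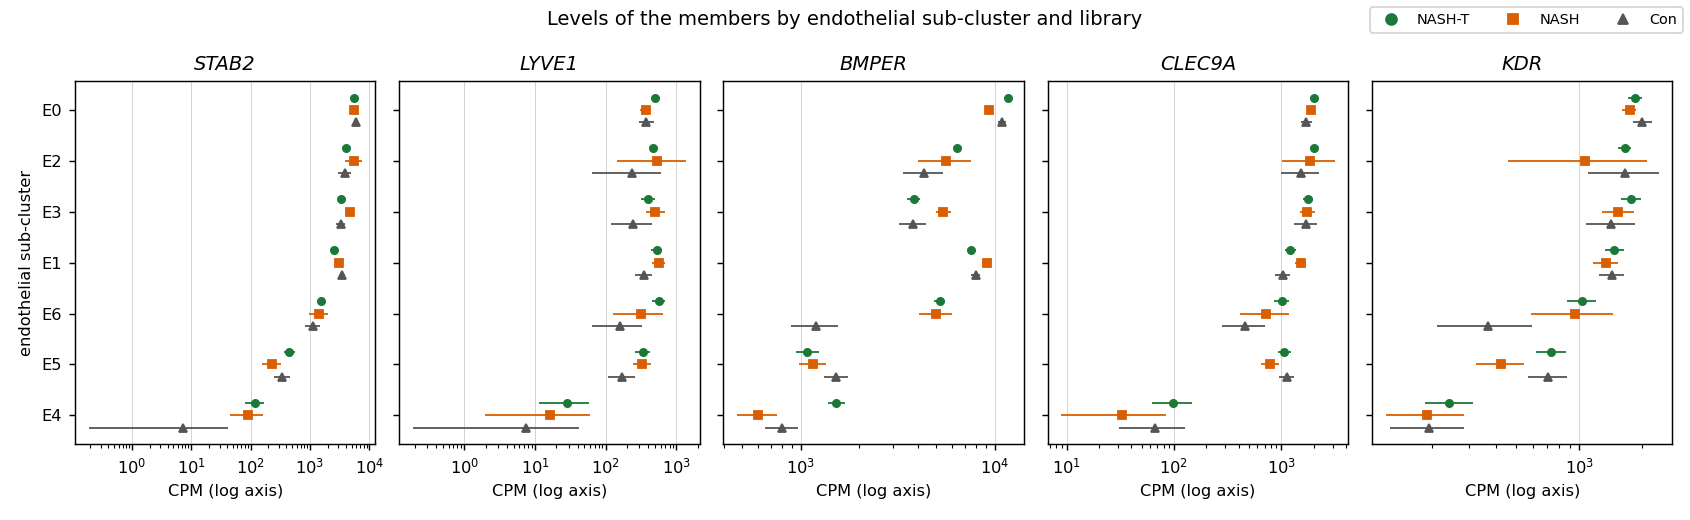
Level of each gene in CPM (log axis) in endothelial sub-clusters, ordered by STAB2, for NASH-T, NASH and Con with exact 95% Poisson intervals. With the libraries pooled, STAB2 spans 5612 CPM in E0, 354 CPM in E5 and 81.8 CPM in E4, and LYVE1 423, 289 and 19.9 CPM.

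Levels in the sinusoidal class differed little between libraries. A gene was called different at a ratio of at least 1.5 in either direction with an interval excluding 1 and at least 20 UMIs over both libraries. In NASH-T against Con, 1 of the 5 genes was called, against 10.1% of all 8175 genes measured. In NASH against Con 0 of 5 were called, against 8.9% of 6869 genes, and in NASH-T against NASH 0 of 5, against 9.3% of 8421 genes. With 1 library per group there is no test behind these counts.

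LYVE1 was the gene called. It was higher in NASH-T (803 UMIs) than in Con (166 UMIs), at a ratio of 1.57 (1.33 to 1.87). In NASH against Con the LYVE1 ratio was 1.36 (1.12 to 1.65), and in NASH-T against NASH 1.16 (1.02 to 1.32). The NASH-T call depended on the cells taken: without E5 the ratio was 1.45 (1.21 to 1.74), and with finer clusters it was also 1.45, both below the size called. The direction held in both. The mixed cluster, left out of these ratios, held 2.70% of the LYVE1 UMIs in NASH-T, 19.3% in NASH and 24.7% in Con. What adding it would do to the call was not tested.

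STAB2 had a ratio of 0.998 (0.948 to 1.05) in NASH-T against Con, 1.14 (1.07 to 1.204) in NASH against Con and 0.878 (0.841 to 0.917) in NASH-T against NASH. BMPER had 1.01 (0.974 to 1.05), 1.09 (1.05 to 1.14) and 0.927 (0.899 to 0.957) in the same order. CLEC9A had 1.24 (1.14 to 1.34), 1.16 (1.06 to 1.27) and 1.07 (1.00 to 1.14). KDR had 1.08 (0.993 to 1.17), 0.972 (0.887 to 1.07) and 1.11 (1.03 to 1.19). The first and second comparison share the Con library. The intervals place each of these 4 genes within 1.5-fold in either direction in all 3 comparisons, as far as counting error goes.

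**Figure D5:**
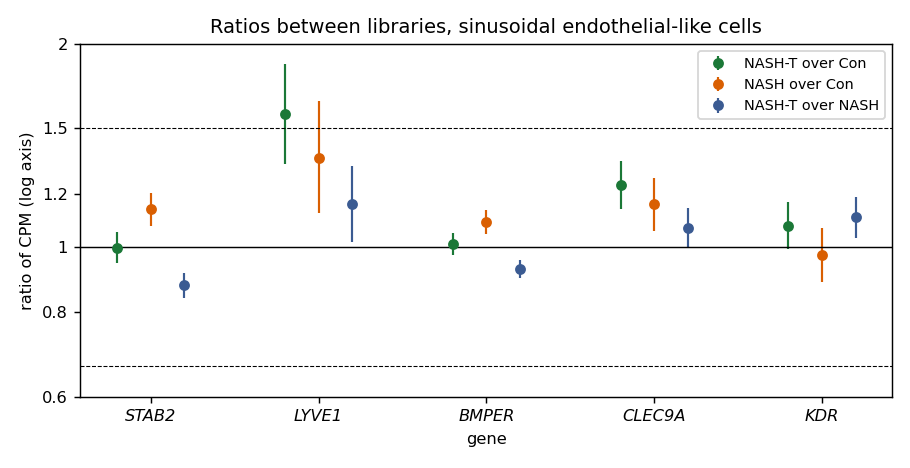
Ratio of CPM (log axis) in sinusoidal endothelial-like cells for NASH-T over Con, NASH over Con and NASH-T over NASH, with exact conditional binomial 95% intervals and dashed lines at 1.5-fold in either direction. LYVE1 in NASH-T over Con, at 1.57, is the only point past a dashed line.

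The libraries differed in which sub-clusters made up the class. E2, led by EPHB1 and interferon-induced genes such as ISG15 and MX1, held 31.8% of the sinusoidal cells in NASH-T, 1.06% in NASH and 3.25% in Con. E0 held 17.2%, 37.5% and 25.3%, E1 17.5%, 27.8% and 33.9%, and E5 8.74%, 11.9% and 21.3%. Outside E5, STAB2 was seen in 82.0% of thinned cells in NASH-T, 89.2% in NASH and 79.5% in Con, and CLEC9A in 78.8%, 79.5% and 68.6%. For STAB2 the interval of Con (72.9% to 85.0%) overlapped that of NASH-T (78.9% to 84.9%). For CLEC9A the interval of Con (61.4% to 75.3%) lay below that of NASH-T (75.5% to 81.9%) and overlapped that of NASH (74.4% to 83.9%). By level, Con was not the lowest for STAB2: without E5 its ratio was 0.874 in NASH-T against Con and 1.06 in NASH against Con.

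Within E1, LYVE1 was higher in NASH-T (529 CPM) and in NASH (562 CPM) than in Con (346 CPM), at 1.53 (1.10 to 2.14) and 1.62 (1.14 to 2.33). Within E5 it had 337 CPM in NASH-T, 329 CPM in NASH and 172 CPM in Con, at 1.96 (1.19 to 3.33) and 1.91 (1.12 to 3.34). In E0 LYVE1 had 504 CPM in NASH-T, 368 CPM in NASH and 377 CPM in Con, and was not called. In E3 it had 398 CPM in NASH-T, 506 CPM in NASH and 245 CPM in Con, where Con had 10 UMIs, and was called in NASH against Con at 2.06 (interval from 1.02) and not in NASH-T against Con at 1.62 (0.837 to 3.52). Con was thus the lowest for LYVE1 in E1, E3 and E5, and not below NASH in E0.

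Of the other genes, STAB2 and KDR were called within E5. STAB2 there was higher in NASH-T (450 CPM) than in NASH (227 CPM), at 1.98 (1.30 to 3.09), with 344 CPM in Con. The share of thinned E5 cells with a STAB2 UMI did not follow this. It was 7.04% in NASH-T (5 of 71), 11.5% in NASH (6 of 52) and 14.8% in Con (8 of 54), with overlapping intervals. KDR in E5 was higher in NASH-T (736 CPM) than in NASH (424 CPM), at 1.74 (1.27 to 2.40), and lower in NASH than in Con (712 CPM), at 0.595 (0.421 to 0.837). The E5 levels rest on 78 NASH-T, 57 NASH and 59 Con cells.

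In vascular endothelial-like cells BMPER was the most abundant of the 5, with 1164 CPM in NASH-T, 508 CPM in NASH and 625 CPM in Con. KDR had 225 CPM in NASH-T, 211 CPM in NASH and 162 CPM in Con. NASH-T was the highest for BMPER. For KDR the libraries were within counting error, at 1.39 (0.877 to 2.24) in NASH-T against Con and 1.07 (0.679 to 1.71) in NASH-T against NASH. Of the 4 genes measured in NASH-T against Con, 3 were called, all higher, with 13.1% of all genes called. Here and in the classes below, several genes reached 20 UMIs mainly through the library where they were high, such as STAB2 and CLEC9A in NASH-T vascular cells, so these counts are descriptions and nothing is read from them against the share over all genes. BMPER was higher at 1.86 (1.496 to 2.34), and at 1.91 (1.54 to 2.39) within E4 alone. Of its 337 NASH-T UMIs, 41.5% lay in 5 of 136 cells and 47 in 1 cell, against 35.2% of 108 UMIs in 5 of 99 Con cells.

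The other vascular calls rested on fewer molecules. STAB2 was called at 7.76 (1.94 to 67.5) from 26 UMIs in 6 NASH-T cells, 19 of them in 1 cell, against 2 UMIs in Con. CLEC9A was called at 2.87 (1.07 to 9.62) from 24 UMIs in 15 NASH-T cells against 5 UMIs in 4 Con cells, and within E4 its ratio was 1.47 and not called. In NASH-T against NASH, BMPER was higher at 2.29 (1.77 to 3.01) and CLEC9A at 3.81 (1.16 to 19.7), which is 2 of 4 measured against 11.6% of all genes. In NASH against Con, 0 of 2 measured genes were called, against 14.1%. STAB2 was not among those measured, with 16 UMIs in NASH and 2 in Con (ratio 10.0, interval 2.36 to 90.0), but its level in NASH (116 CPM) was not below that in NASH-T (89.8 CPM), and both were above Con (11.6 CPM). LYVE1 had 4 UMIs in NASH-T, 1 in NASH and 2 in Con, and was not seen in a sub-cluster of 6 cells with the lymphatic genes CCL21, RELN and PROX1.

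Outside the endothelium and the mixed cluster, no class with the libraries pooled reached more than 3.88% of the sinusoidal level of any of the 5 genes, which was that of BMPER in stellate, fibroblast or smooth muscle-like cells. STAB2 there had 7.86 CPM in NASH-T, 201 CPM in NASH and 12.3 CPM in Con, and BMPER had 179 CPM in NASH-T, 429 CPM in NASH and 164 CPM in Con. The NASH library had the highest level of STAB2, BMPER, CLEC9A and KDR, but not of LYVE1 (11.7 CPM in NASH, 17.6 CPM in Con). BMPER, with 93 UMIs in Con, was higher in NASH than in Con at 2.62 (2.08 to 3.33). In NASH against Con 4 of 4 measured genes were called, all higher, with 11.2% of all genes called. In NASH-T against NASH 4 of 5 were called, all lower, with 8.68%. In NASH-T against Con, 0 of 3 were called, with 9.21%. In NASH against Con, STAB2 (155 against 7 UMIs) and CLEC9A (53 against 5 UMIs) were measured because of their NASH UMIs. LYVE1 (9 against 10 UMIs) was not measured there. Nothing is therefore read from these counts against the share over all genes. The 155 STAB2 UMIs of NASH lay in 27 of 417 cells, with 50.3% in 5 cells. The proportions of the genes moved with them: STAB2 gave 26.0% of their UMIs in NASH, near its 25.6% in sinusoidal cells, against 3.49% in NASH-T and 5.34% in Con. The part of sinusoidal transcripts from attached or lysed cells in this difference was not tested. In dividing-like cells STAB2 reached 128 CPM, with 70 of its 73 UMIs in 5 cells.

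In hepatocyte-like cells BMPER had 27.4 CPM in NASH-T, 38.8 CPM in NASH and 18.4 CPM in Con. It was higher in NASH than in Con at 2.12 (1.83 to 2.45). The libraries filled different hepatocyte-like clusters, of which clusters 5 and 6 held 1421 and 1388 NASH cells and 6 and 15 Con cells. In the clusters that both libraries filled, BMPER was higher in NASH throughout: 52.3 CPM in NASH and 20.4 CPM in Con in cluster 1, 40.6 and 14.2 CPM in cluster 2, and 95.9 and 25.6 CPM in cluster 7. STAB2 at 1.75 (1.29 to 2.40) and CLEC9A at 1.73 (1.14 to 2.71) were also higher, which makes 3 of 5 called against 16.4% of all genes, STAB2 and CLEC9A at levels read as background above. Within clusters STAB2 had 2.63 CPM in NASH and 3.96 CPM in Con in cluster 1, with overlapping intervals, and 33 UMIs in NASH and 23 in Con in cluster 2, where it was higher in NASH per UMI of the cluster. In NASH-T against Con only CLEC9A was called (1.73, interval 1.11 to 2.75), against 12.5%, and in NASH-T against NASH only STAB2, lower at 0.395, against 13%. BMPER gave 63.7% of the UMIs of the 5 genes in hepatocyte-like cells, above its 49.4% in sinusoidal cells. The BMPER ratio of NASH against Con was 2.06 (0.857 to 5.29) in T cell-like cells, from 16 and 9 UMIs, and not called. The part of free RNA or attached cells in the hepatocyte-like values was not tested. In T cell-like cells, which should hold none of the genes, 4 of 5 were called in NASH-T against Con, all higher, against 6.75% of all genes, and the largest of these 4 levels in NASH-T was 23.3 CPM for KDR. In NASH against Con 1 of 4 was called there (LYVE1, 17 against 3 UMIs), against 7.02%, and in NASH-T against NASH 0 of 5, against 7.97%. The sinusoidal class was 10.0% of cells in NASH-T and 3.85% in Con, and the part of free RNA in the T cell values was not tested.

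In macrophage-like cells every one of the 5 genes stayed between 2.73 and 12.9 CPM in each library. In NASH against Con, STAB2 and CLEC9A were higher and BMPER and KDR lower, 4 of 5 against 8.17% of all genes. The BMPER call rested on few Con cells: 40 of the 52 Con UMIs lay in 5 cells and 25 in 1 cell, against 18 UMIs in 14 cells in NASH. In NASH-T against Con LYVE1 was higher (35 against 16 UMIs), 1 of 5 against 9.46%, and in NASH-T against NASH LYVE1 was higher and CLEC9A lower, 2 of 5 against 9.52%. The CLEC9A UMIs of this class include those of M11: 17 of 41 in NASH and 12 of 26 in Con.

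Related genes in sinusoidal endothelial-like cells were read from lists, whose counts stand beside the 10.1%, 8.9% and 9.3% of all genes called in NASH-T against Con, NASH against Con and NASH-T against NASH. Of the scavenger and lectin receptors, 3 of 11 measured were called in NASH-T against Con, all higher. Their median log2 ratio was 0.06, against 0.02 over all genes. Beside LYVE1 these were MRC1, the mannose receptor (1321 CPM in NASH-T against 843 CPM in Con, ratio 1.57), and OLR1, a receptor for oxidised LDL (52 against 5 UMIs, ratio 3.38). OLR1 was also higher in NASH-T than in NASH (4 UMIs), at 6.28 (2.31 to 23.9), and SCARB1, the HDL receptor, was lower, at 0.574 (0.349 to 0.949). In NASH against Con 0 of 9 were called (median 0.34 against −0.01). Of the sinusoidal identity genes, MRC1 and RELN (62 against 2 UMIs) were higher and NTN4 lower of 14 in NASH-T against Con, and DNASE1L3, RELN and TFEC were higher of 13 in NASH against Con. In NASH-T against NASH, NTN4 and TFEC were lower of 14.

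The list of VEGF ligands and receptors, which holds KDR, had 0 of 11 called in NASH-T against Con and 0 of 11 in NASH against Con. In NASH-T against NASH, VEGFC was lower at 0.627 (0.488 to 0.808), with 87.1 CPM in NASH-T and 139 CPM in NASH. Pan-endothelial genes had 0 of 15 called in all 3 comparisons. Of the BMP genes, ID3, a direct BMP target, was higher in NASH-T (178 CPM) than in Con (114 CPM) at 1.56 (1.18 to 2.08). HAMP, the hepcidin gene of hepatocytes, was higher in NASH-T (106 CPM) and NASH (155 CPM) than in Con (57.9 CPM), which makes 2 of 17 and 1 of 16. BAMBI, a decoy receptor, was lower in NASH-T than in NASH at 0.649, 1 of 17. The part of hepatocyte RNA in the HAMP values was not tested.

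Of the genes for making, binding and breaking down hyaluronan, LYVE1 was higher and CEMIP, CD44 and UGDH were lower in NASH-T than in Con, of 6 measured (median log2 ratio −0.63). CEMIP, which degrades hyaluronan, had 44.7 CPM in NASH-T, 99.8 CPM in NASH and 107 CPM in Con. It was a leading gene of E5, whose part in the class was smallest in NASH-T. UGDH was lower in NASH than in Con (3 against 21 UMIs), 1 of 5, and in NASH-T against NASH UGDH was higher and CEMIP lower of 5. STAB2, in the same list, was not called in any comparison. Of the genes known to vary along the sinusoid, RSPO3 and NTN4 were lower of 8 in NASH-T against Con, 0 of 8 were called in NASH against Con, and RSPO3, CDH13, NTN4 and ADGRG6 were lower of 9 in NASH-T against NASH. RSPO3 had 43.5 CPM in NASH-T, 93.7 CPM in NASH and 116 CPM in Con, and it too was a leading gene of E5.

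Of the dendritic genes, 4 were measured in sinusoidal endothelial-like cells, and CADM1, an adhesion molecule of many cell types, was lower in NASH-T (195 CPM) than in Con (351 CPM) at 0.556 (0.465 to 0.668). In the other comparisons 0 of 4 were called. Of the C-type lectin and SYK pathway genes, OLR1 was higher of 5 in NASH-T against Con and against NASH, and PLCG2, an enzyme downstream of SYK, was lower of 4 in NASH against Con at 0.497 (0.249 to 0.972). CLEC1A, next to CLEC9A, had 455 CPM in NASH-T, 360 CPM in NASH and 355 CPM in Con, and CLEC1B had 101, 112 and 88.7 CPM. Of the vascular and capillary genes, ACKR1, a chemokine-binding receptor of venules, was higher in NASH-T (327 CPM) than in NASH (159 CPM) and Con (179 CPM). CAV1 and PALMD were lower in NASH-T than in Con (9 measured), CD34 was lower in NASH-T than in NASH (8 measured), and 0 of 8 were called in NASH against Con. Over all lists, which include the 5 genes, 7 genes were higher and 8 lower of 85 measured in NASH-T against Con, 4 higher and 2 lower of 80 in NASH against Con, and 3 higher and 10 lower of 84 in NASH-T against NASH.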

How the data were processed

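Single-cell libraries of 3 groups (NASH-T, NASH, Con), each pooled from 5 goat livers, were read. Cell Ranger 7.0.0 is the tool named by the submitters' processing notes. The values deposited by the authors are UMI counts per gene and barcode, and every barcode already had at least 500 UMIs. Genome build, annotation and intron counting: not given in the sources used here.

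Cells with at least 200 genes, 500 UMIs and at most 20% mitochondrial UMIs were kept, and Scrublet doublets (expected rate 0.06, which marked 459 NASH-T, 342 NASH and 284 Con barcodes) were removed, leaving 27005297, 29059323 and 23752171 UMIs. With scanpy 1.11.5 and leidenalg 0.10.2 (Python 3.11.15), counts scaled to 10000 per cell, 2000 variable genes without the 5 genes described, 30 principal components, 15 neighbours and resolution 0.8 gave 25 clusters, without batch correction. Clusters were named from marker sets as "-like"; rebuilt names may differ from those of the study. UMIs were summed per class and library. Intervals (scipy 1.17.1) are exact Poisson for levels, conditional binomial for ratios and Clopper-Pearson for shares. The ratio code was tested on simulated counts.

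Besides the 5 genes, text names the 5 genes most correlated with each (at least 200 UMIs, sums of at least 30 cells) and up to 4 called genes per list with the largest ratios; other genes were named after their values were seen. The 5 genes and all lists were chosen with earlier results of these data known. Alternatives changed scaling, filters, doublets, resolution and cell choice.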

Additional observations from a re-analysis of the deposited data

How the results depend on the processing

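The 15 sinusoidal ratios, the CLEC9A level in plasmacytoid dendritic-like cells and the counts of called list genes were recomputed under 12 alternatives, of which the scaling to genes at least 2-fold above hepatocyte-like cells and the removal of E2 or E5 were chosen after seeing the data. Of 170 values, 135 kept their call and stayed within the main interval (counts within 1.5 times), 35 did not, and 0 reversed a called direction. Thinned to 1000 UMIs per cell, STAB2 was 1.22 in NASH against Con and 0.831 in NASH-T against NASH, and CLEC9A in plasmacytoid dendritic-like cells was 0 CPM. At resolution 1.2, NASH-T against Con gave 0.912 for STAB2, 1.45 for LYVE1, 0.939 for BMPER and 0.979 for KDR, and NASH-T against NASH gave 0.827 for STAB2 and 0.881 for BMPER. Without E2, STAB2 was 0.922 and CLEC9A 1.13 in NASH-T against Con, and 0.811 and 0.971 in NASH-T against NASH. Without E5, NASH-T against Con gave 0.874 for STAB2, 1.45 for LYVE1 and 0.910 for BMPER, NASH against Con 1.06 and 1.03 for STAB2 and BMPER, and NASH-T against NASH 0.823 and 0.882 for these.

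A gate of at least 2 endothelial markers in place of clusters (1201 NASH-T, 958 NASH and 635 Con cells) took in other classes: 45.9% of its cells were sinusoidal endothelial-like and 30.1% hepatocyte-like. It gave 2.33 for STAB2, 3.26 for LYVE1, 2.37 for BMPER, 3.13 for CLEC9A and 2.46 for KDR in NASH-T against Con. NASH against Con gave 1.65, 1.64, 1.37, 1.58 and 1.202 for the same genes, and NASH-T against NASH 1.42, 1.98, 1.73, 1.98 and 2.05. LYVE1 in NASH-T against Con kept its call in 9 of 11 alternatives. Other causes were not tested. The limits are 1 library per group, 3′ counts, and few vascular and dendritic-like cells. No paired analysis was possible because each group has 1 pooled library and no test was made.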
